A study of Rattus norvegicus with 16 samples.

Results

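This account covers the immune and antigen presentation genes of a rat array series, chosen by name. A probe set belonged when its single annotated gene symbol began with RT1- (the rat major histocompatibility complex, MHC), Cd and a digit, Fcgr, C1q, Ccl, Cxcl, Il and a digit, or Tlr, or was B2m, C3 or Pf4. The rule took 163 of 8799 probe sets. Of these, 2 were mouse control probe sets and were set aside, which left 161 probe sets for 103 genes, among 7006 probe sets and 4736 genes with a single symbol. By role the genes were 9 of MHC class I with B2m, 10 of MHC class II with Cd74, 5 of complement, 2 Fc receptors, 2 toll-like receptors, 13 chemokines, 28 interleukins and their receptors, 7 tetraspanins and 27 other CD molecules. The name pattern also took in proteins whose main work is not immune, such as C1qbp, which resides mostly in mitochondria, and the widely expressed tetraspanins Cd9, Cd63, Cd81 and Cd82.

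The arrays measured total RNA from rat pineal gland (4 arrays) and retina (12 arrays). The titles give CT12, CT6, ZT12 and ZT6, with 1 pineal and 3 retina arrays for each. By convention ZT is time since lights on in a light-dark cycle, and CT is time by the animal's own clock. The labels give no strain, sex, age, lighting or treatment. They do not tie the numbered arrays to individual animals, and the p-values below cover variation among these arrays, which may be technical. The source labels name the retina on all 16 arrays. They place retina array 3 of each group and the ZT12 pineal array under brain rather than eye. The title of that pineal array gives hour 12 and its description hour 6, so its hour is given here with that disagreement.

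MHC class I molecules are made of an RT1 heavy chain and the light chain B2m and show peptides from inside the cell to CD8 T cells. MHC class II molecules pair an alpha and a beta chain, are guided through the cell by the invariant chain Cd74, and show peptides taken up from outside to CD4 T cells. Both the retina and the pineal gland hold resident macrophage-like cells, and the retina lies behind a blood barrier that the pineal gland lacks.

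Members differed widely in brightness, and many were dim. Levels are log2 of the intensity plus 16, and tests were limited to probe sets whose mean reached the 40th percentile of all probe sets. That filter passed 61 member probe sets of 46 genes in the tissue comparison and 58 of 43 genes in the retina. The other 56 genes passed in neither, and the means of their brightest probe sets lay between 4.87 and 8.79. They included the T cell genes Cd2, Cd3d, Cd3g, Cd5, Cd8a, Cd28 and Cd247, the costimulatory genes Cd40, Cd80 and Cd86, both toll-like receptors, 10 of the 13 chemokines and 21 of the 28 interleukin genes. In bulk tissue, fewer cells of a type and less RNA per cell cannot be told apart.

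Pineal marker genes summed to 46450 to 60510 on the pineal arrays, against 286.4 to 1200 on the retina arrays. CT12 retina array 1 went against its label in part. Rod genes averaged 11.94 on it, below the 12.84 to 13.25 of the pineal arrays and the 15.46 to 16.31 of the other 11 retina arrays, while its pineal marker sum was the lowest of all. Its median Spearman correlation with the other retina arrays was 0.837, where theirs were 0.944 to 0.962. Lens genes were highest on CT12 arrays 1 and 2, at 17.22 and 17.12, and lowest on CT6 array 3 and ZT6 array 2, at 11.32 and 11.63. The 11 microglia and macrophage markers measured summed to 48820 (CT12 array 1) and 23050 (CT12 array 2), with 9196 to 14430 on the other 10 retina arrays. Without CT12 array 1, 49 of 60 member probe sets were called between the tissues, with the share of all probe sets not given here. In each retina comparison 0 of 57 were then called, against 0% to 1.51% of all probe sets. Whole-array medians were 531.6 to 576.3 in the pineal gland and 671.3 to 858.4 in the retina.

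B2m, RT1-Da and Cd1d1 were brighter in the pineal gland, and Cxcl14 and Cd9 were brighter in the retina. The 150 bases just before their start sites are shown as examples from 5 of the genes that differed between the tissues, with a class I, a class II and a class I-like gene among them. They come from RefSeq on build GRCr8, which held a start region for 78 of the 103 genes. Capitals mark ATTGG on either strand (the Y box letters, which in MHC class II genes bind NF-Y), an interferon type motif (GAAA, any 2 bases, GAAA) and an NF-kB type motif (GGG, any 2 bases, TTTCC). No marked stretch overlaps another.
B2m, chr3:129549180-129549329, plus strand: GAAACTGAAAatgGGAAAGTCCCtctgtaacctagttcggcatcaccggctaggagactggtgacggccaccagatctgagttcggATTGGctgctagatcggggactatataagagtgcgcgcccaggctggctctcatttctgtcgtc
RT1-Da, chr20:4515265-4515414, plus strand: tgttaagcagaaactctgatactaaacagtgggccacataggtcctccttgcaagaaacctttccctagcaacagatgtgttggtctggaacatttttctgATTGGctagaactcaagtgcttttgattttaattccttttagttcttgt
Cd1d1, chr2:174725030-174725179, minus strand: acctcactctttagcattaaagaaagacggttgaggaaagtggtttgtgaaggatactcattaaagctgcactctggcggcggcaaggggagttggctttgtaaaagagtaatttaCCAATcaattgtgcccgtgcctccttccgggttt
Cxcl14, chr17:8323000-8323149, plus strand: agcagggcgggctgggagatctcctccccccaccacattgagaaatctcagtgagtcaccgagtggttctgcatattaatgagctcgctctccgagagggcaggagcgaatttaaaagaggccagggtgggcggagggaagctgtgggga
Cd9, chr4:159975359-159975508, minus strand: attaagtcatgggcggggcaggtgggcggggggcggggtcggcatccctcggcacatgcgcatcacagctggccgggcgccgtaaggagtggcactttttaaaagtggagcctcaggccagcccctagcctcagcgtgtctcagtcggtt

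The B2m window held all 3 motifs, the RT1-Da and Cd1d1 windows held the Y box letters alone, and the Cxcl14 and Cd9 windows held none of them. ATTGG was present in 23.7% of 27457 windows of this length, the interferon type motif in 2.02% and the NF-kB type motif in 0.834%. Among genes called higher in the pineal gland, 9 of 20 windows held ATTGG and 4 held the interferon type motif, namely those of B2m, Cd48, Fcgrt and RT1-S3. Among genes called lower, 3 of 10 windows held ATTGG and 0 held the interferon type motif. The higher set includes Cd1d1 and Il1rap, which passed the filter through the pineal gland. It also includes Fcgrt and RT1-S3, whose calls depended on the probe set or the scaling. These counts are descriptions and were not tested. The NF-kB type motif was found in 9 of the 78 member windows, those of B2m, Cd74, Cd86, Ccl20, Cxcl2, Cxcl6, Il1rn, Il6 and Il9. Letters searched on both strands with few matches were TAATCC, the core read by the photoreceptor and pineal factor Crx, in 2 member windows and 3.61% of all, and the E box CACGTG, in 1 member window and 3.93% of all. Matches are letters in a window and say nothing of binding.

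The comparison of the 4 pineal arrays with the 12 retina arrays asked how these genes differ between the tissues. Of the 61 member probe sets tested, 48 were called at an adjusted p under 0.05 (78.7%), 32 higher and 16 lower in the pineal gland. Among all probe sets tested 75.8% were called, 39.4% higher and 36.4% lower. At an unadjusted p under 0.05 the members' count was 50, or 82.0%, against 77.4% of all. By the brightest probe set, 25 genes were higher and 12 lower of 46, with a median difference of 0.50 log2 units, against 0.09 for all probe sets tested. For 9 of the 46 genes the mean of 1 tissue was under the filter limit, so that they passed through the other tissue and their values are given as a description. These were Cd1d1, Il15, Il1rap and RT1-DMb, dim in the retina, and Cxcl14, Cd44, Il6st, C1qb and Cd37, dim in the pineal gland. Of the other 37 genes 22 were higher and 8 lower. The arrays of the tissues did not overlap for 24 member probe sets (39.3%), against 51.6% of all. Without normalization between arrays the median over all probe sets was -0.23 and the members split into 21 higher and 18 lower, and with a common median it was 0.28 with 35 higher and 14 lower. Of the 25 genes called higher, 16 stayed higher on the values as deposited and 25 with a common median. Without the arrays placed under brain, 18 genes were higher and 10 lower. Shares of all probe sets called with these scalings and without those arrays are not given here. The counts under these settings therefore do not set the members apart from the other probe sets.

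MHC class I showed no single direction, with 3 of 7 genes higher and 3 lower (1 and 2 on the values as deposited, 4 and 2 with a common median). B2m had levels of 14.80, 15.14, 15.20 and 15.15 in the CT12, CT6, ZT12 and ZT6 pineal arrays, against 11.87 to 13.38 with a median of 12.67 in the retina arrays. Every pineal array was above every retina array, a difference of 2.54 ± 0.25 (SE), or 5.80-fold, with a limma adjusted p of 4.767e-07. The RT1 heavy chains did not share one direction with this light chain.

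RT1-A, a classical heavy chain, had 12.19, 12.13, 12.27 and 12.47 in the CT12, CT6, ZT12 and ZT6 pineal arrays, against 13.06 to 13.93 with a median of 13.61 in the retina. All pineal arrays were below all retina arrays (-1.29 ± 0.14). RT1-CE12, another heavy chain, had 11.86, 12.17, 11.81 and 12.32 in the CT12, CT6, ZT12 and ZT6 pineal arrays, against 12.66 to 13.83 with a median of 13.23 in the retina (-1.28 ± 0.19). It too was lower without overlap. RT1-CE16 had 12.66, 13.16, 12.90 and 13.36 in the CT12, CT6, ZT12 and ZT6 pineal arrays, against 13.12 to 14.85 with a median of 13.46 in the retina, with overlap. Its test called it lower (-0.73 ± 0.28, adjusted p = 0.03164), but not on the values as deposited (-0.51), with a common median (0.002722), or without the CT12, ZT12 or ZT6 pineal array (-0.77 to -0.50). These 3 probe sets are of the kind that matches a sequence family, so signal of close RT1 copies cannot be told apart.

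Among the nonclassical class I genes, RT1-S3 was higher by 0.56 ± 0.19 and RT1-M5 by 0.70 ± 0.22, with overlapping arrays, and neither was called on the values as deposited. RT1-M3-1, whose mouse counterpart presents formylated peptides, had a difference of 0.34 ± 0.16 (adjusted p = 0.05905) on its brighter probe set and, without a filter, of 2.83 ± 0.31 on its dimmer one. Fcgrt, the heavy chain of the neonatal Fc receptor that also pairs with B2m, had levels of 13.43, 13.39, 13.78 and 14.11 in the CT12, CT6, ZT12 and ZT6 pineal arrays, against 11.62 to 13.50 with a median of 12.38 in the retina (1.23 ± 0.21). Its other probe sets went the other way, at -1.46 ± 0.42 (called) and -0.41 ± 0.29 (not called), so the direction of Fcgrt depends on the probe set.

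Among MHC class II genes, 4 of 8 were higher in the pineal gland and 1 was lower, against 2 and 2 on the values as deposited. RT1-Da, an alpha chain, had levels of 12.86, 12.69, 13.25 and 13.27 in the CT12, CT6, ZT12 and ZT6 pineal arrays, against 8.56 to 11.74 with a median of 9.55 in the retina. The groups did not overlap, and the difference was 3.26 ± 0.39, or 9.57-fold (adjusted p = 3.304e-06). A second RT1-Da probe set was also higher (1.77 ± 0.35).

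Cd74, the invariant chain, had 10.20, 10.32, 10.77 and 11.03 in the CT12, CT6, ZT12 and ZT6 pineal arrays, against 6.58 to 10.82 with a median of 8.65 in the retina. The highest retina array lay within the pineal range, and the difference of 1.71 ± 0.53 (adjusted p = 0.009733) lost its call without the ZT6 pineal array (1.47, adjusted p = 0.05121) and without the arrays placed under brain (1.22, adjusted p = 0.06884). RT1-Db1, the beta chain that pairs with RT1-Da (0.89 ± 0.21), and RT1-Ba, the alpha chain of another class II pair (0.55 ± 0.15), were higher, but not on the values as deposited. RT1-Bb was split, with 1.09 ± 0.21 on one probe set and 0.08 ± 0.23 on its brighter one.

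The peptide-loading genes of class II showed smaller differences. RT1-DMa, part of the exchange factor that loads peptides, had 9.22, 9.58, 10.27 and 9.945 in the CT12, CT6, ZT12 and ZT6 pineal arrays, against 9.93 to 10.77 with a median of 10.35 in the retina (-0.55 ± 0.18). Its arrays overlapped. That call was lost without the CT12 pineal array (-0.36, adjusted p = 0.1044) and without the CT6 pineal array (-0.49, adjusted p = 0.05839), and a dimmer RT1-DMa probe set read 1.47 ± 0.29. Its partner RT1-DMb had 0.33 ± 0.51, and RT1-DOa, which restrains the exchange factor, had -0.06 ± 0.13, and neither was called.

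Other genes of the antigen processing and interferon pathway were taken from a list of 35, of which 23 were on the array and 18 passed the filter. In the pineal gland 11 were higher and 5 lower, with a median of 0.59. Of all probe sets tested, 39.4% were higher and 36.4% lower. The interferon response factors Irf7 (2.56 ± 0.45), Irf8 (2.30 ± 0.24) and Irf1 (1.67 ± 0.17) were higher. So were the immunoproteasome subunit Psmb9 (1.20 ± 0.35) and the peptide transporters Tap1 (0.61 ± 0.16) and Tap2 (0.49 ± 0.18). Values as deposited are not given here for this or the other gene lists. Among member genes with differences near those of Tap1 and Tap2, RT1-S3 and RT1-M5 lost their call on that scale, while Cd47 and Cd81 kept it. The kinase Jak1 (-2.31 ± 0.36), the proteasome activator Psme1 (-2.07 ± 0.28) and the loading chaperone Pdia3 (-1.67 ± 0.11) were lower.

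Markers of macrophages moved in the same direction for part of the list. Of 20 listed microglia and macrophage genes 11 were on the array and 5 passed the filter, with Lyz2 (2.16 ± 0.34), Ctss (1.04 ± 0.15) and Ptprc (0.61 ± 0.20) higher in the pineal gland. The summed intensity of the list was 25040 to 36450 on the pineal arrays and 9196 to 48820 on the retina arrays. Of 9 blood genes 6 were on the array and all 4 tested were higher, with sums of 45250 to 260800 on the pineal arrays and 24820 to 117500 on the retina arrays. Of 5 T and NK cell genes measured, Gzmb and Lck were higher and Thy1, which neurons also express, was lower, with sums of 3833 to 5218 and 3083 to 26850. The part of these cells in the differences was not tested.

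**Figure D1:**
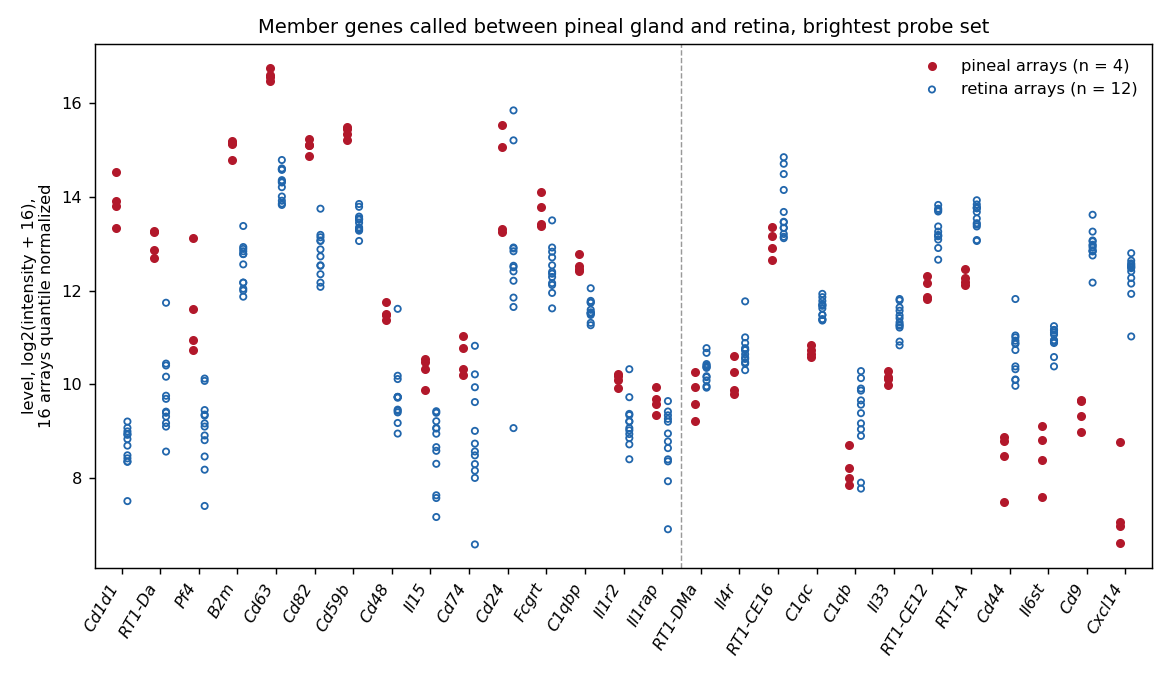
Levels of the 27 member genes named in the tissue comparison, each by its brightest probe set, as log2(intensity + 16) after quantile normalization of the 16 arrays; filled points are the 4 pineal arrays and open points the 12 retina arrays. Genes run from the largest positive to the largest negative difference of pineal minus retina, with Cd1d1 at 5.25 on the left and Cxcl14 at -4.98 on the right, and the dashed line separates higher from lower genes.

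The lipid-presenting molecule Cd1d1, which resembles class I and serves natural killer T cells, was bright in the pineal gland and dim in the retina. Its levels were 13.81, 14.54, 13.91 and 13.33 in the CT12, CT6, ZT12 and ZT6 pineal arrays, against 7.50 to 9.20 with a median of 8.76 in the retina. The ranges did not overlap, with a difference of 5.25 ± 0.24. Its retina mean was under the filter limit.

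Of the 4 tested genes placed under complement by name, 2 were higher and 2 lower. Both C1q chains, C1qb and C1qc, were lower. The higher genes were C1qbp and C1qtnf6, taken in because their names begin with C1q. C1qb, a chain of the complement starter C1q, had 7.845, 8.21, 8.70 and 7.985 in the CT12, CT6, ZT12 and ZT6 pineal arrays, against 7.77 to 10.28 with a median of 9.47 in the retina. It was lower by -1.11 ± 0.35 with overlap, and was at -0.85, with no call, without the CT12 pineal array. Its pineal mean was under the filter limit, so these values are a description. C1qc, another C1q chain, had 10.59, 10.65, 10.84 and 10.72 in the CT12, CT6, ZT12 and ZT6 pineal arrays, against 11.36 to 11.93 with a median of 11.65 in the retina (-0.91 ± 0.11). All pineal arrays were below. C1qbp had 12.41, 12.79, 12.46 and 12.53 in the CT12, CT6, ZT12 and ZT6 pineal arrays, against 11.26 to 12.05 with a median of 11.53 in the retina (0.96 ± 0.12). It and the secreted protein C1qtnf6 (0.87 ± 0.14) were higher without overlap.

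C3, the central complement protein, gave no usable direction. Its brighter probe set missed the filter and read 9.66 ± 1.48 in the pineal gland and 8.25 ± 1.00 in the retina (SD, n = 4 and 12), while its other probe set read 6.78 ± 1.90 and 8.80 ± 1.17. Without a filter they were called in opposite directions (1.41 ± 0.37 and -2.02 ± 0.54). Of 5 other complement genes that passed the filter, from a list of 16, all were higher in the pineal gland, among them the protease C1s (3.13 ± 0.38) and the inhibitor Serping1 (2.31 ± 0.21).

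Chemokines were mostly dim, and only Pf4, Cxcl14 and Cxcl6 were tested. Pf4, the platelet chemokine, had levels of 10.72, 11.61, 10.95 and 13.12 in the CT12, CT6, ZT12 and ZT6 pineal arrays, against 7.40 to 10.12 with a median of 9.13 in the retina. All pineal arrays were above all retina arrays, a difference of 2.57 ± 0.40 or 5.96-fold (adjusted p = 3.809e-05).

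Cxcl14, a chemokine made by epithelia and glia and with a pineal mean under the filter limit, ran the other way. It had 6.96, 6.60, 7.06 and 8.76 in the CT12, CT6, ZT12 and ZT6 pineal arrays, against 11.02 to 12.80 with a median of 12.49 in the retina. All pineal arrays lay below, with a difference of -4.98 ± 0.29, and its other probe set, also below on all pineal arrays, was at -2.02 ± 0.30. Cxcl6, a neutrophil chemokine, was not called (0.11 ± 0.22).

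Interleukin genes were called for all 7 tested, 4 higher and 3 lower, against 2 and 3 of 8 on the values as deposited. Among the 7, Il15 and Il1rap (higher) and Il6st (lower) passed the filter through 1 tissue, so their values are descriptions. Il15, a growth factor for natural killer cells, had 9.87, 10.48, 10.54 and 10.32 in the CT12, CT6, ZT12 and ZT6 pineal arrays, against 7.16 to 9.42 with a median of 8.80 in the retina (1.72 ± 0.39, no overlap). Il33, a nuclear cytokine released by damaged cells, had 10.16, 10.28, 10.12 and 9.98 in the CT12, CT6, ZT12 and ZT6 pineal arrays, against 10.83 to 11.82 with a median of 11.37 in the retina (-1.24 ± 0.14, no overlap).

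Receptors of the interleukins moved in both directions. Il6st, the signalling chain shared by the interleukin 6 family, had 8.81, 9.10, 7.59 and 8.38 in the CT12, CT6, ZT12 and ZT6 pineal arrays, against 10.38 to 11.24 with a median of 11 in the retina (-2.49 ± 0.21, no overlap). The decoy receptor Il1r2 had 10.21, 10.09, 10.18 and 9.91 in the CT12, CT6, ZT12 and ZT6 pineal arrays, against 8.40 to 10.32 with a median of 9.13 in the retina (0.92 ± 0.20). The accessory chain Il1rap had 9.59, 9.685, 9.33 and 9.94 in the CT12, CT6, ZT12 and ZT6 pineal arrays, against 6.90 to 9.64 with a median of 8.86 in the retina (0.90 ± 0.38). Both overlapped, as did Il6r (0.40 ± 0.17). None of these 3 was called on the values as deposited, and Il1rap lost its call in 8 of the 16 fits that left out an array, over which its difference ranged from 0.62 to 1.16. Il4r, the receptor of interleukin 4, had 10.26, 9.875, 9.79 and 10.61 in the CT12, CT6, ZT12 and ZT6 pineal arrays, against 10.30 to 11.77 with a median of 10.68 in the retina. It was lower (-0.60 ± 0.20), but not when the CT12, CT6 or ZT12 pineal array was left out (-0.55 to -0.48).

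Cytokines dim in the retina dropped out of the main filter, because a mean over 16 arrays is weighted to the 12 of the retina. A filter on the mean of the 2 tissue means, chosen after the values were seen, passed 71 member probe sets of 52 genes. Of these, 56 were called, 41 higher and 15 lower, and 75.6% of all probe sets were called with that filter. It let in 11 further probe sets, which gave 9 of the higher calls and 0 of the lower ones. They passed through being bright in 1 tissue, so their values are descriptions with no test. The counts of 56 and 41 include them and are not read as a result about the members.

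Il18, a cytokine activated by the inflammasome, had 12.95, 12.50, 13.05 and 12.42 in the CT12, CT6, ZT12 and ZT6 pineal arrays, against 6.15 to 8.59 with a median of 7.38 in the retina. The difference was 5.29 ± 0.34, and its other probe set gave 3.41 ± 0.52. Ccl2, which draws monocytes, had 10.71, 10.60, 10.72 and 10.68 in the CT12, CT6, ZT12 and ZT6 pineal arrays, against 6.22 to 8.93 with a median of 7.79 in the retina (2.97 ± 0.45). Both were above every retina array on all 4 pineal arrays. Il1b, a fever cytokine, read 2.41 ± 0.42 on 1 probe set, while another of its probe sets read -0.03 ± 0.26 without a filter.

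Tetraspanins, membrane organizers of vesicles and synapses, also split. Cd63, which marks late endosomes and secretory vesicles, had 16.47, 16.76, 16.56 and 16.60 in the CT12, CT6, ZT12 and ZT6 pineal arrays, against 13.83 to 14.79 with a median of 14.32 in the retina (2.32 ± 0.15, no overlap). Cd82 had 15.11, 15.12, 14.87 and 15.24 in the CT12, CT6, ZT12 and ZT6 pineal arrays, against 12.08 to 13.75 with a median of 12.80 in the retina (2.30 ± 0.23, no overlap), and its other probe set was higher by 0.51 ± 0.21. Cd9 had 8.99, 9.65, 9.66 and 9.32 in the CT12, CT6, ZT12 and ZT6 pineal arrays, against 12.17 to 13.62 with a median of 12.94 in the retina. All pineal arrays lay below, with a difference of -3.54 ± 0.18, or 11.6-fold (adjusted p = 4.833e-10), and its other probe set gave -3.05 ± 0.22. The probe sets of Cd81 were called in opposite directions (0.72 ± 0.18 and -0.58 ± 0.19), and Cd151 (0.46 ± 0.21) and Cd37 (-0.12 ± 0.17) were not called.

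Of 10 other CD genes, 7 were higher and 1 was lower. Among these, Cd1d1 (higher) and Cd44 (lower) passed the filter through 1 tissue, so their values are descriptions. Cd59b, an inhibitor of the complement attack complex, had 15.35, 15.50, 15.22 and 15.45 in the CT12, CT6, ZT12 and ZT6 pineal arrays, against 13.06 to 13.85 with a median of 13.48 in the retina (1.91 ± 0.12, no overlap). Cd44, a hyaluronan receptor found on Muller glia in the retina, had 7.49, 8.88, 8.79 and 8.46 in the CT12, CT6, ZT12 and ZT6 pineal arrays, against 9.97 to 11.82 with a median of 10.79 in the retina (-2.27 ± 0.30, no overlap). Cd48, an adhesion ligand of leukocytes, had 11.38, 11.48, 11.76 and 11.49 in the CT12, CT6, ZT12 and ZT6 pineal arrays, against 8.945 to 11.61 with a median of 9.72 in the retina (1.76 ± 0.32, with overlap). Cd47, which restrains engulfment, was higher on both probe sets (2.30 ± 0.16 and 0.67 ± 0.12, no overlap).

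The rest of this group showed small or unstable differences. Cd14, the lipopolysaccharide co-receptor, was called higher on both probe sets (1.41 ± 0.23 and 0.38 ± 0.16), but its brighter one, the smaller difference, was at -0.11 on the values as deposited. The T cell co-receptor chain Cd8b was called higher by 0.56 ± 0.23, against 0.07 with no call on the values as deposited, and Cd4 (0.10 ± 0.30) and Cd200 (0.30 ± 0.25) were not called. Cd24, a small surface glycoprotein, had 15.54, 13.32, 15.07 and 13.26 in the CT12, CT6, ZT12 and ZT6 pineal arrays, against 9.06 to 15.85 with a median of 12.51 in the retina. It was called on 1 of 3 probe sets (1.64 ± 0.68, adjusted p = 0.04115) and was at 0.51 without the arrays placed under brain (adjusted p = 0.2026). Its call was lost in 9 of the 16 fits that left out an array, and it varied within both tissues, as described further on.

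Within the retina the question was whether these genes followed the hour or the regime. No member passed the limma test in any of the 7 retina comparisons (0 of 58 in each), and few of all probe sets did. The share of all called was 0.286% between ZT12 and ZT6 (0.267% higher, 0.0191% lower), 0.0381% between CT12 and CT6 (all lower), 0.61% between CT12 and ZT12 (0.114% higher, 0.496% lower) and 0% between CT6 and ZT6. It was 0.21% for the hour over both regimes (0.114% higher, 0.0953% lower), 0% for the regime over both hours and 0.0191% for the difference of the hour effects (all lower). At an unadjusted p under 0.05, 3 of 58 member probe sets differed between ZT12 and ZT6 (5.17%, against 8.62% of all). Between CT12 and CT6 there were 18 (31.0%, against 27.4%), between CT12 and ZT12 13 (22.4%, against 26.2%), and between CT6 and ZT6 2 (3.45%, against 5.07%). Over both regimes 8 differed with the hour (13.8%, against 17.6%), over both hours 4 differed with the regime (6.90%, against 11.8%), and 10 had an hour effect that differed between regimes (17.2%, against 16% of all). These shares lay near those of all probe sets.

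The median difference of CT12 minus CT6 over member genes was 0.35, with 33 of 42 genes positive (78.6%), while over all probe sets it was -0.06, with 45.9% positive. The members' median was 0.21 without CT12 array 1, 0.33 without array 2, 0.45 without array 3 and 0.09 without arrays 1 and 2. Arrays 1 and 2 were the highest in lens and macrophage genes. Positive genes made up 73.17% without array 1, against 44.85% of all probe sets, and 68.29% without arrays 1 and 2, against 48.74%. The median difference of the lens list was 2.64 and that of the macrophage list 0.99, and their part in the members' median was not tested. Arrays of CT12 and CT6 did not overlap for 16 member probe sets (27.6%, against 26.5% of all), 13 above and 3 below. Between ZT12 and ZT6 the median gene difference was 0.08 and 7 probe sets did not overlap (12.1%, against 25.4%). Between CT12 and ZT12 10 did not overlap (17.2%, against 28.8%), and between CT6 and ZT6 5 (8.62%, against 17.2%). The hours over both regimes separated 0 members, against 1.53% of all, and the regimes over both hours 0, against 0.82%.

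Pf4 had the smallest p of the members between CT12 and CT6. Its retina levels were 10.23, 10.18 and 9.27 on CT12 arrays 1 to 3, 8.56, 7.49 and 8.28 on CT6 arrays, 9.56, 9.01 and 9.20 on ZT12 arrays, and 9.46, 8.91 and 9.44 on ZT6 arrays. The CT12 arrays were all above the CT6 arrays, with a difference of 1.79 ± 0.33 (adjusted p = 0.09495), and ZT12 and ZT6 lay between them with a difference of -0.01 ± 0.33. The hour effect under CT minus that under ZT was 1.80 ± 0.47 (adjusted p = 0.2043). None of these passed, and Pf4 between CT12 and CT6 was 1.63 ± 0.36 without CT12 array 1 (adjusted p = 0.08359). Without CT12 arrays 1 and 2 a single CT12 array is left, and the difference was 1.18, with no test given.

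Leaving out CT12 array 3 instead gave different counts. Between CT12 and CT6, 18 of 59 member probe sets of 13 genes were then called (30.5%, against 24.9% of all), 16 higher and 2 lower, Pf4 among them (2.11 ± 0.32, adjusted p = 0.01028). The 13 genes also held RT1-Da, RT1-Ba, RT1-S3, Cd74, Cd14, Cd24, Cd48, Cd151, Fcgrt, Il1r2 and Il6r above and Cxcl14 below. Between CT12 and ZT12, 10 were called (16.9%, against 20.4%), for the hour over both regimes 1 (1.69%, against 3.39%) and for the difference of the hour effects 1 (1.69%, against 1.2%), Pf4 in both. The CT12 group is then made of arrays 1 and 2, the 2 with the highest lens and macrophage sums.

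Fcgrt had 13.43, 12.87 and 12.68 on CT12 arrays 1 to 3, 12.29, 11.99 and 11.68 on CT6 arrays, 12.35, 12.14 and 12.52 on ZT12 arrays, and 12.79, 12.18 and 12.39 on ZT6 arrays. On this brightest probe set CT12 lay above CT6 on all arrays (1.01 ± 0.25, adjusted p = 0.1105), while the other Fcgrt probe sets overlapped. Without CT12 array 1 the difference on the brightest probe set was 0.78 ± 0.22. Cxcl14 had 11.11, 11.97 and 12.17 on CT12 arrays, 12.50, 12.76 and 12.49 on CT6 arrays, 12.61, 12.53 and 12.40 on ZT12 arrays, and 12.28, 12.46 and 12.56 on ZT6 arrays. The CT12 arrays were below all others, by -0.83 ± 0.24 against CT6 and -0.77 ± 0.24 against ZT12 (adjusted p = 0.1261 and 0.1267), and the lowest value was on CT12 array 1. Il6st had 11.03, 10.49 and 10.68 on CT12 arrays, against 11.02, 11.23 and 11.24 on CT6 arrays, which overlapped (-0.43 ± 0.17, adjusted p = 0.1605).

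Il33 and Cd63 gave the smallest p among higher genes between ZT12 and ZT6. Il33 had 11.64, 11.84 and 11.87 on ZT12 arrays 1 to 3, against 11.33, 10.92 and 11.29 on ZT6 arrays, with 11, 11.34 and 11.54 at CT12 and 11.70, 11.39 and 11.48 at CT6. The ZT12 arrays were all above the ZT6 arrays (0.60 ± 0.18, adjusted p = 0.3102), while under CT the arrays overlapped, and the difference of the hour effects was -0.83 ± 0.26 (adjusted p = 0.2158). Cd63 had 14.53, 14.56 and 14.75 on ZT12 arrays, against 14.30, 13.79 and 13.94 on ZT6 arrays (0.61 ± 0.19, adjusted p = 0.3289), and 14.54, 14.27 and 14.15 at CT12, against 14.25, 13.76 and 13.85 at CT6. Over both regimes Cd63 was at 0.48 ± 0.13 (adjusted p = 0.1861), with overlap between the hours.

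The smallest p below 0 in that comparison were those of RT1-Db1 and RT1-Bb, both class II chains, while Cd74 was at 0.48 and RT1-Da at 0.06. RT1-Db1 was at -0.58 ± 0.31 and RT1-Bb at -0.52 ± 0.35 between ZT12 and ZT6, with overlapping arrays and adjusted p of 0.708 and 0.791. Between CT6 and ZT6 the values were -1.16 ± 0.33 for Pf4, -0.44 ± 0.20 for RT1-A, 0.73 ± 0.32 for Cd8b and 0.35 ± 0.18 for Il33, with adjusted p of 0.8275 to 1. Pf4 was below and Cd8b and Il33 were above on all CT6 arrays, and RT1-A overlapped.

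Between CT12 and ZT12, the receptors Il1r2 (0.87 ± 0.29) and Il6r (0.72 ± 0.23) were above and Il33 (-0.49 ± 0.18) was below on all 3 arrays, with adjusted p of 0.1267 to 0.1542. Il1r2 had 10.43, 9.84 and 9.48 on CT12 arrays, against 9.45, 9.17 and 8.50 on ZT12 arrays. Il6r had 10.75, 10.22 and 10.25 on CT12 arrays, against 9.61, 9.62 and 9.84 on ZT12 arrays. Over both hours, CT minus ZT was -0.76 ± 0.29 for RT1-CE16, -0.32 ± 0.16 for RT1-M3-1, 0.56 ± 0.23 for Cd8b and 0.27 ± 0.12 for C1qtnf6, and none passed (adjusted p from 0.3523 to 0.4311). RT1-CE16 was split within the ZT groups, with 13.28, 14.67 and 14.81 at ZT12 and 14.44, 14.09 and 13.15 at ZT6, against 13.06 to 13.61 on all 6 CT arrays.

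**Figure D2:**
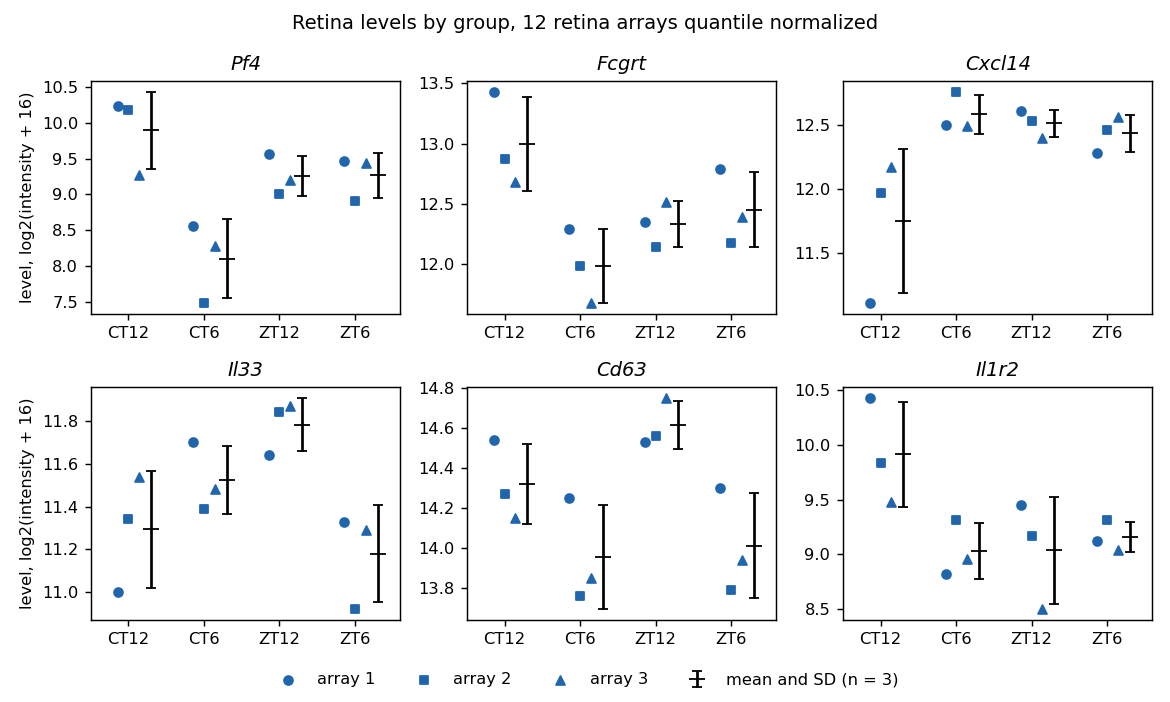
Retina levels of 6 member genes by group, as log2(intensity + 16) after quantile normalization of the 12 retina arrays; symbols are arrays 1, 2 and 3, and bars give the mean and SD of 3 arrays. Pf4 lay at 9.27 to 10.23 at CT12 and at 7.49 to 8.56 at CT6, and the lowest Cxcl14 value was on CT12 array 1.

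C3 was read by a pair of probe sets in the retina. The one brighter over all 16 arrays, under the filter, had 7.51, 7.46 and 8.43 on CT12 arrays, 9.06, 8.71 and 7.73 on CT6 arrays, 9.14, 9.96 and 9.80 on ZT12 arrays, and 7.48, 8.18 and 6.69 on ZT6 arrays. It was above on all ZT12 arrays relative to ZT6, and without a filter the difference was 2.18 ± 0.46 (adjusted p = 0.2138). The probe set that was tested had 8.19, 10.54 and 10.56 on ZT12 arrays, against 9.04, 9.30 and 8.99 on ZT6 arrays, which overlapped.

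Cd74, RT1-Da and B2m each had their highest value on CT12 array 1, while RT1-DMa was at 10.86, 10.04 and 10.45 on CT12 arrays 1 to 3, with its lowest of the 12 values on array 2. Cd74 had 10.91, 10.32 and 8.40 on CT12 arrays 1 to 3, 9.73, 8.10 and 6.63 on CT6 arrays, 8.58, 8.84 and 10.05 on ZT12 arrays, and 9.11, 8.26 and 8.67 on ZT6 arrays. Its difference between CT12 and CT6 was 1.72 ± 0.80 (adjusted p = 0.1854), with overlapping arrays. RT1-Da had 11.79, 10.51 and 9.42 on CT12 arrays and 10.27, 9.20 and 8.66 on CT6 arrays, with 9.28, 9.53 and 10.54 at ZT12 and 9.80, 9.87 and 9.50 at ZT6.

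B2m had 13.32, 12.89 and 12.19 on CT12 arrays and 12.74, 12.18 and 12.07 on CT6 arrays (0.47 ± 0.35), with 11.91, 12.74 and 12.85 at ZT12 and 12.80, 12.54 and 12.04 at ZT6. Macrophage markers were highest on CT12 arrays 1 and 2, as given above, and their part in these levels was not tested. C1qb, the C1q chain made by microglia in the brain, had 10.39, 10.02 and 9.145 on CT12 arrays, 9, 9.49 and 7.999 on CT6 arrays, 9.67, 9.98 and 10.24 on ZT12 arrays, and 9.27, 9.77 and 7.87 on ZT6 arrays. It was high on ZT12 arrays as well as on CT12 arrays 1 and 2.

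**Figure D3:**
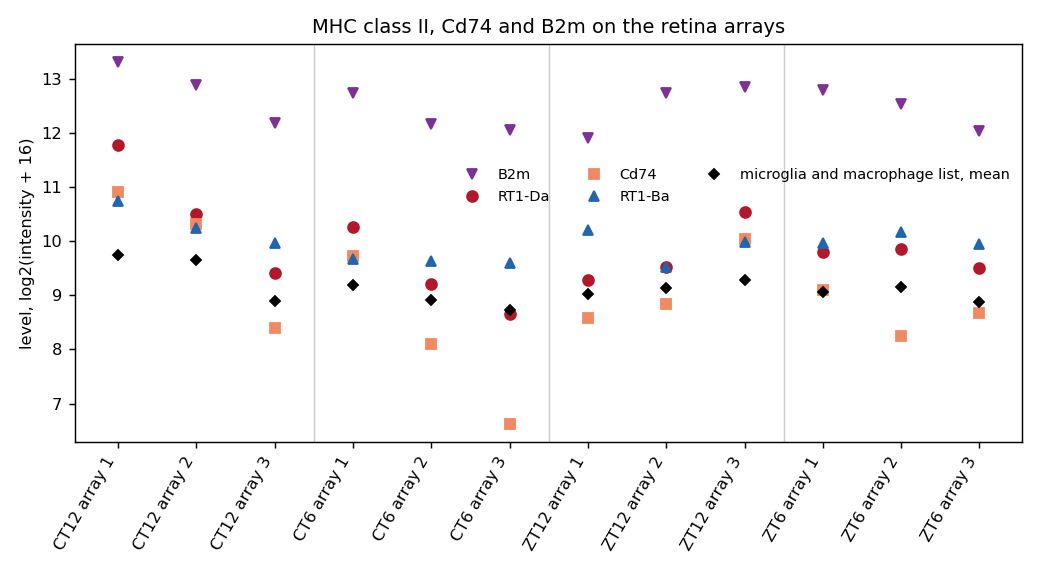
Levels of B2m, RT1-Da, Cd74 and RT1-Ba on the 12 retina arrays, with the mean level of the microglia and macrophage list as diamonds, all as log2(intensity + 16). The genes were quantile normalized over the 12 retina arrays and the list over all 16 arrays, so their heights are not on the same scale. CT12 array 1 holds the highest value of each, with RT1-Da at 11.79 and Cd74 at 10.91, and Cd74 was lowest on CT6 array 3 at 6.63.

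Cd24 had the widest range over the retina arrays of any member. It had 15.84, 15.18 and 12.40 on CT12 arrays 1 to 3, 12.88, 12.80 and 9.17 on CT6 arrays, 12.85, 11.71 and 12.48 on ZT12 arrays, and 12.51, 11.90 and 12.22 on ZT6 arrays. Its highest values were on CT12 arrays 1 and 2, which had the highest lens means, and its lowest value was on CT6 array 3, which had the lowest lens mean, while ZT6 array 2, also low in lens genes, was at 11.90. Without CT12 arrays 1 and 2, which leaves 1 CT12 array and no test, the difference between CT12 and CT6 was 0.80. The part of lens tissue in Cd24 was not tested.

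**Figure D4:**
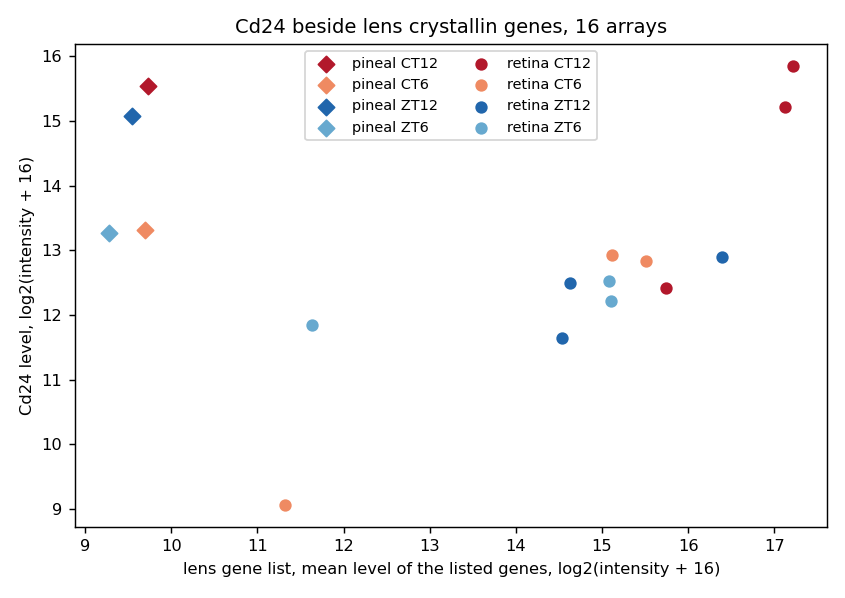
Cd24 level on 16 arrays (vertical axis) beside the mean level of the listed lens genes (horizontal axis), both as log2(intensity + 16); diamonds are pineal and circles retina arrays, coloured by condition. Among retina arrays the 2 with the highest lens means, 17.22 and 17.12, had the highest Cd24, and the 4 pineal arrays had lens means of 9.28 to 9.73 at high Cd24.

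In the pineal gland each condition had 1 array, so hours were compared without a test, by a difference of at least 1 log2 unit in the same direction under CT and ZT on the values as deposited. Of 79 member probe sets bright enough, 6 met this, 3 higher and 3 lower at hour 12. Over all probe sets that bright, 2.56% met it, 1.53% higher and 1.03% lower. Brightness was judged by the mean of the 4 arrays, with a limit of 8.39. RT1-A3 and the Fcgrt probe set were under that limit on both hour 12 arrays, and Cxcl13 was under it at CT6. They passed through the hour at which they were brighter, so their values are descriptions. The count of 6 includes them and is not read as a result about the members. The median member difference was -0.11 under CT and -0.04 under ZT, against -0.07 and -0.07 over all.

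Cd24 was higher at hour 12. On its brightest probe set it had 15.65 at CT12 against 13.48 at CT6 (2.17), and 15.16 at ZT12 against 13.42 at ZT6 (1.74). Another probe set had 13.14 at CT12 against 10.48 at CT6, and 12.65 at ZT12 against 10.47 at ZT6, while the remaining one differed by 1.70 under CT and 0.89 under ZT. Lens sums were 16600 at CT12 against 19020 at CT6 and 14920 at ZT12 against 18880 at ZT6, the opposite order to Cd24. The sum of 7 mast cell genes had the same order as Cd24, with 47200 at CT12 against 5348 at CT6 and 45620 at ZT12 against 4831 at ZT6. Their mean log2 level differed less, at 9.32 against 8.43 under CT and 9.08 against 8.47 under ZT. A sum is set mostly by its brightest genes, so it does not show a rise of the list as a group. Of these 7 genes only Fcer1a, a subunit of the IgE receptor, passed the tissue filter, and their part in Cd24 was not tested. The remaining higher probe set was that of the B cell chemokine Cxcl13, with 8.44 at CT12 against 7.37 at CT6 and 10.67 at ZT12 against 8.64 at ZT6, which missed the limit with an offset of 64.

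Pf4 was lower at hour 12. It had 10.33 at CT12 against 11.45 at CT6, a difference of -1.12, and 10.63 at ZT12 against 13.28 at ZT6, a difference of -2.65. Blood markers summed to 45250 at CT12 against 156300 at CT6, and to 83300 at ZT12 against 260800 at ZT6, the same order as Pf4 in each pair. Their part in Pf4 was not tested. The platelet integrin Itga2b, the platelet marker measured, was at an intensity of 1665 at CT12 against 1298 at CT6 and of 1179 at ZT12 against 2170 at ZT6, an order that matched Pf4 under ZT only.

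RT1-A3, a class I heavy chain, was also lower, with 7.70 at CT12 against 9.57 at CT6 and 8.001 at ZT12 against 9.68 at ZT6. Fcgrt was lower on its dimmest probe set, with 8.07 at CT12 against 9.68 at CT6 and 7.43 at ZT12 against 9.84 at ZT6. Its brightest probe set differed by 0.05 under CT and -0.28 under ZT, so Fcgrt as a gene showed no common change. B2m (-0.24 under CT and 0.07 under ZT), Cd74 (-0.21 and -0.34) and Il18 (0.47 and 0.75) stayed within the limit.

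C3 and Il1b did not keep a direction or size across regimes. C3 had 7.63 at CT12 against 8.84 at CT6, but 11.31 at ZT12 against 9.51 at ZT6. Il1b had 9.18 at CT12 against 8.88 at CT6, and 11.47 at ZT12 against 9.64 at ZT6. Both were highest on the ZT12 array, the one with the disputed hour and the brain label. Tlr4 and Tlr7, sensors of bacterial lipopolysaccharide and viral RNA, exceeded the limit at hour 12, but were too dim for the brightness filter.

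**Figure D5:**
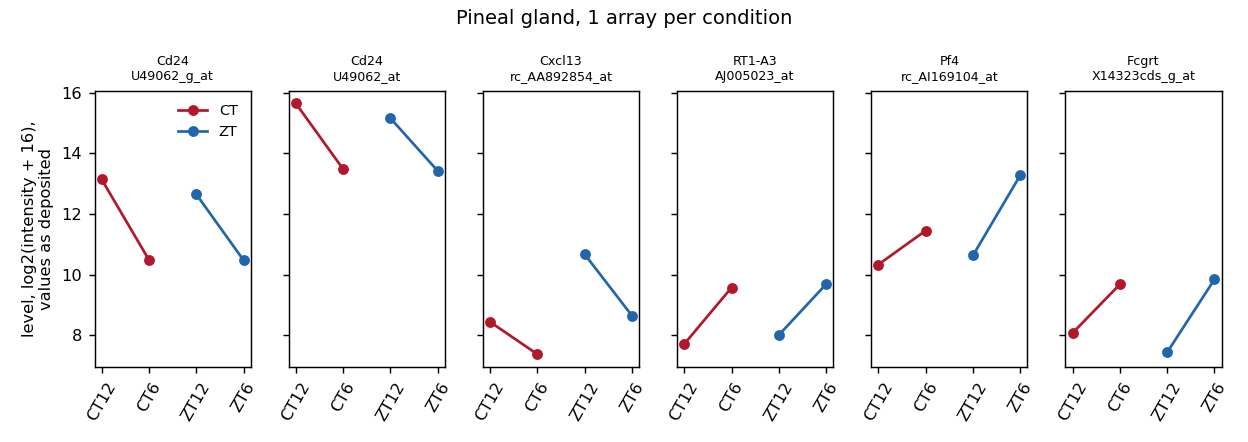
Pineal levels of the 6 member probe sets that differed by at least 1 log2 unit between hours 12 and 6 in the same direction under CT and ZT, as log2(intensity + 16) of the deposited values, 1 array per point. The Cd24 and Cxcl13 probe sets were higher and the RT1-A3, Pf4 and Fcgrt probe sets lower at hour 12.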

How the data were processed

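The deposited values are linear Affymetrix intensities of 16 arrays, and how the authors summarized and scaled them is not given in the sources used here. With 2% trimmed at each end, the mean intensity was 2503 to 2506 on every array. The members, gene lists and rules were chosen with earlier results of these data known. Genes came from the platform annotation. Control probe sets (59) were removed, the 12 retina arrays, and for the tissue comparison all 16, were quantile normalized, and log2(intensity + 16) was tested. Probe sets with a mean at or over the 40th percentile were kept (5244, limits 8.88 in the retina and 8.83 in the tissue fit). limma 3.58.1 in R 4.3.3 (lmFit, eBayes, two-sided) fitted the 4 retina groups together, and tissue plus condition over 16 arrays. Calls used Benjamini-Hochberg adjustment over the 5244 at 0.05, and a difference is given ± its SE. Sums over marker lists use the brightest probe set of each gene. Array number limits the precision.

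Genes were named by a rule. For the tissues it took up to 15 called member genes in each direction by size, for each retina comparison those called or else the 2 with the smallest p in each direction, and for single pineal arrays those past 1 log2 unit under both regimes. B2m, C3, Pf4 and Cd74 were always included. The other tested members are given by role. Il18, Ccl2, Il1b, the retina values of Cd24, RT1-Da and C1qb, and the genes called without CT12 array 3 were chosen after their values were seen.

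On simulated data of 5244 probe sets the retina comparison of ZT12 and ZT6 found 65 of 100 simulated 2-fold changes, 88 of 100 4-fold changes and 8 unchanged probe sets, and the tissue comparison found 71, 94 and 7. These counts hold for the simulated data only. The real retina arrays differed as whole arrays, in rod and lens genes among others. The share of changes found and the false calls on such arrays were not tested. The counts therefore do not show how many real retina changes were missed. Alternatives to the main settings were offsets, scaling, filters, array weights, a replicate block and leaving out arrays. Figures and tables used Python 3.11.15.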

Additional observations from a re-analysis of the deposited data

Results flagged for a closer look

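B2m in the pineal CT12 array was at 14.80, against 15.14, 15.20 and 15.15 in the CT6, ZT12 and ZT6 arrays. The gap to its nearest neighbour was 0.858 of the range of the 4 arrays, which is more than this test allows for 4 values. Chance gives such a gap in about 1 in 20 groups, and the array remained above every retina array.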

How the results depend on the processing

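The tissue count of 48 called member probe sets became 79 of 161 without a filter (58 higher, 21 lower) and 29 of 36 with a 60th percentile filter (15 higher, 14 lower), settings that change how many are tested. Leaving out each array in turn gave 37 to 49. Array weights came from a fit that did not reach its convergence tolerance. It gave CT12 array 2 a weight of 48.4 and arrays 1 and 3 weights of 0.0439 and 0.233. With these weights, of 58 member probe sets, 10 were called for CT against ZT, 35 for CT12 against CT6 and 35 for CT12 against ZT12. There were 2 for ZT12 against ZT6, 19 for the difference of the hour effects and 18 for the hour over both regimes. For the array weights, the filters and the tissue fits that left out an array, shares over all probe sets are not given here. Those counts therefore do not set the members apart from the other probe sets. Leaving out each array gave 0 to 18 for CT12 against CT6, 0 to 10 for CT12 against ZT12, 0 to 1 for the difference of the hour effects, 0 to 1 for the hour over both regimes and 0 for the other retina comparisons. The higher counts all came without CT12 array 3, and the cause was not tested. With the array number as a replicate block 0 members were called in each of the 7 retina comparisons. Correlations of same-numbered deviations ran from -0.41 to 0.41, and those of differently numbered ones from -0.52 to 0.53. Such correlations cannot tell whether the numbers pair the arrays, since deviations of whole arrays also enter them. RT1-CE16 between tissues reversed to 0.002722 with a common median. Over 27 tissue results the alternatives gave 652 of 693 values with the same direction and side of the threshold and 40 that no longer passed, and over 28 retina results 593 of 621, with 28 that newly passed, 20 of them with array weights and 8 without CT12 array 3. Probe brightness limits the rest, as 56 genes were too dim to test.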
